A study of Mus musculus with 12 samples.

Results

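Bone-forming stromal cells set how many osteoclasts, the bone-resorbing cells of the macrophage lineage, are formed next to them. The genes described here are 6 that stromal cells use for this. Tnfsf11 encodes RANKL, the ligand that drives osteoclast formation through its receptor RANK, and Tnfrsf11b encodes osteoprotegerin, the soluble decoy receptor that binds RANKL. Csf1 and Il34 encode the pair of ligands of the receptor CSF1R, which osteoclast precursors need to survive and divide. Pth1r and Vdr encode the receptors for parathyroid hormone and for active vitamin D, the hormones through which stromal cells are known to be told to make more RANKL. The 6 genes were chosen by name for these roles, out of 21851 protein-coding genes, but with earlier results of these data known. For each of them, all called peaks within the gene body and 100 kb on either side were read, which gave 36 of the 22555 peak intervals of the series.

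The peaks came from mesenchymal stem/stromal cells (MSCs) of wild-type mice aged 3 to 5 months. The methods give them as male C57BL/6N animals. The labels name bone marrow as their source and the methods name bone tissue, and the cells were sorted on day 12 of culture as CD45-, Ter119-, CD140a+ and Sca-1+. All groups shared growth at low oxygen before the sort and no gene was altered in any of them. After the sort the cells were kept at 2% oxygen (hypoxia) or moved to 21% oxygen (normoxia). Chromatin immunoprecipitation and sequencing was run for H3K27ac, an acetylation found at active promoters and enhancers, and for H3K4me3, a methylation found at promoters. There were 12 libraries in 6 groups of 2, which were the marks H3K27ac and H3K4me3 and an input control at each oxygen level.

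The deposited data are 4 peak lists, each pooled over the libraries of a mark at an oxygen level, with a position and a score for every peak. The lists hold no values per library, so the sequencing depth and the spread between replicates are unknown and no difference below has a test. A mark carried by a part of the cells and a weaker mark on all of them cannot be told apart in these bulk samples. An interval is called shared when the lists of both oxygen levels held it, and hypoxia-only or normoxia-only when no base of it was in the same mark's other list. H3K27ac over 1000 bp from any H3K4me3 peak is called distal, and distal intervals at most 12.5 kb apart form a cluster.

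The cells were checked against marker genes by the marks within 1000 bp of a transcription start. All 12 mesenchymal genes carried a mark, where 39.9% of all protein-coding genes had neither. Both marks were at 8 of them, H3K4me3 alone at 3 (Eng, Nt5e and Lepr) and H3K27ac alone at 1. Pdgfra, which encodes the sorted antigen CD140a, had both marks, and Ly6a, which encodes Sca-1, had H3K27ac without H3K4me3. Of 15 genes of blood cells, macrophages or osteoclasts, 10 had neither mark, among them the pan-leukocyte gene Ptprc and the osteoclast genes Acp5, Calcr, Dcstamp and Ocstamp. Both marks were present at Ctsk and Cd68, H3K4me3 alone at Tnfrsf11a and Oscar, and H3K27ac alone at Csf1r. Of 6 endothelial genes, 5 had neither mark, and Kdr had H3K4me3 alone. None of 6 late osteoblast and osteocyte genes had either mark at a start. The part of other cells in the marks described below was not tested.

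In called H3K27ac cover, the 6 genes differed far more from each other than between the oxygen levels. The peaks of both oxygen levels were called jointly, so differences between the lists can be under-called. In the whole genome, 14614 of 15421 H3K27ac intervals were shared, so nearly equal cover is the usual state. Csf1 and Il34 lay in wide stretches of H3K27ac, whereas Tnfsf11 had none in its window. The H3K27ac cover was 145.5 kb at Csf1, 92.5 kb at Il34, 49.5 kb at Vdr and 6 kb at Tnfrsf11b, each equal in hypoxia and normoxia. At Pth1r it was 3.916 kb in hypoxia and 2.5 kb in normoxia, and at Tnfsf11 it was 0 kb in both. The median over all protein-coding genes was 8.5 kb, and 26.1% of genes had no H3K27ac in the same kind of window. Csf1 thus ranked 44 of 21851 genes and Il34 ranked 257. Vdr ranked 1523, while Tnfrsf11b ranked 12235 and Pth1r ranked 13916. The windows were of similar length, from 219.422 kb at Csf1 to 264.096 kb at Il34, but they hold different numbers of other genes. No other protein-coding gene starts in the windows of Tnfsf11 and Tnfrsf11b, whereas 1 does at Csf1, 4 at Il34, 5 at Vdr and 9 at Pth1r. As a share of the window, H3K27ac covered 66.3% at Csf1 and 35.0% at Il34, against a median of 3.48% over all genes.

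**Figure D1:**
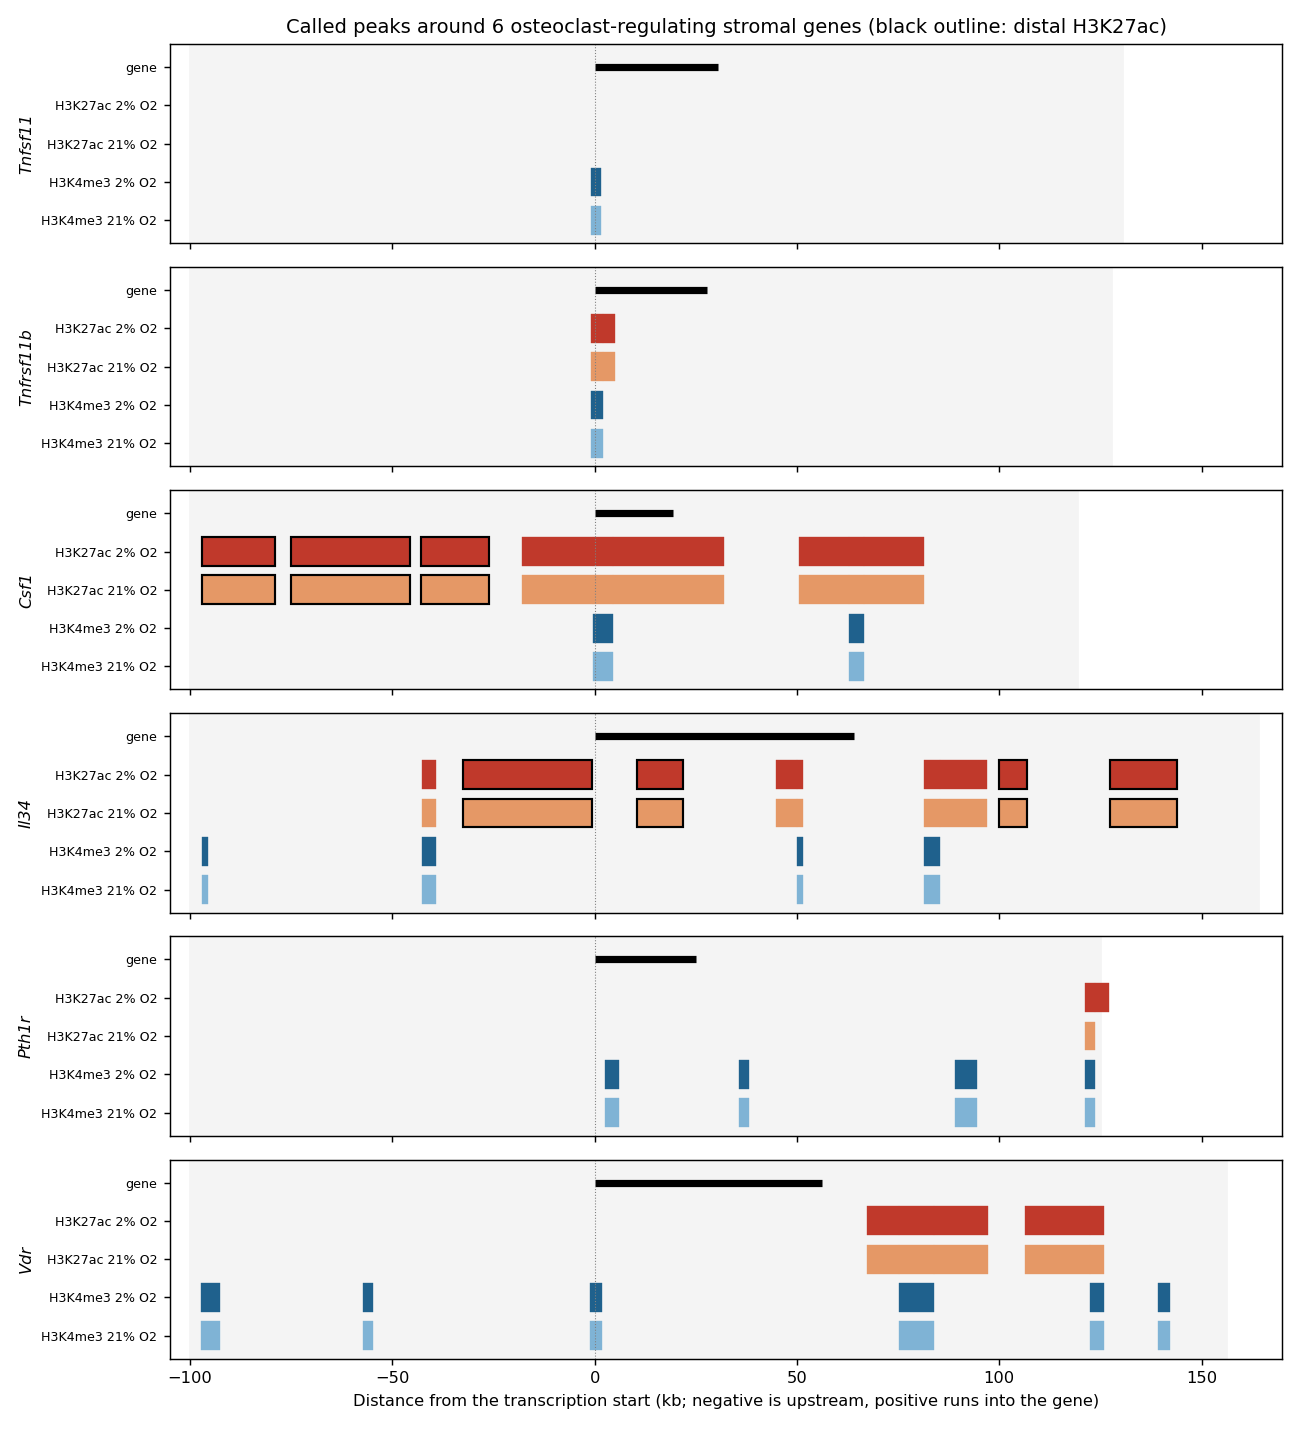
Called peaks of each list (rows) around each of the 6 genes, by distance in kb from the transcription start, with negative values upstream. The black bar is the gene and grey shading its window of 100 kb on either side. Black outlines mark distal H3K27ac, which occurs at Csf1 (3 intervals) and Il34 (4 intervals) but at none of the other 4 genes. Over all protein-coding genes, 39.1% had distal H3K27ac in the window.

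**Figure D2:**
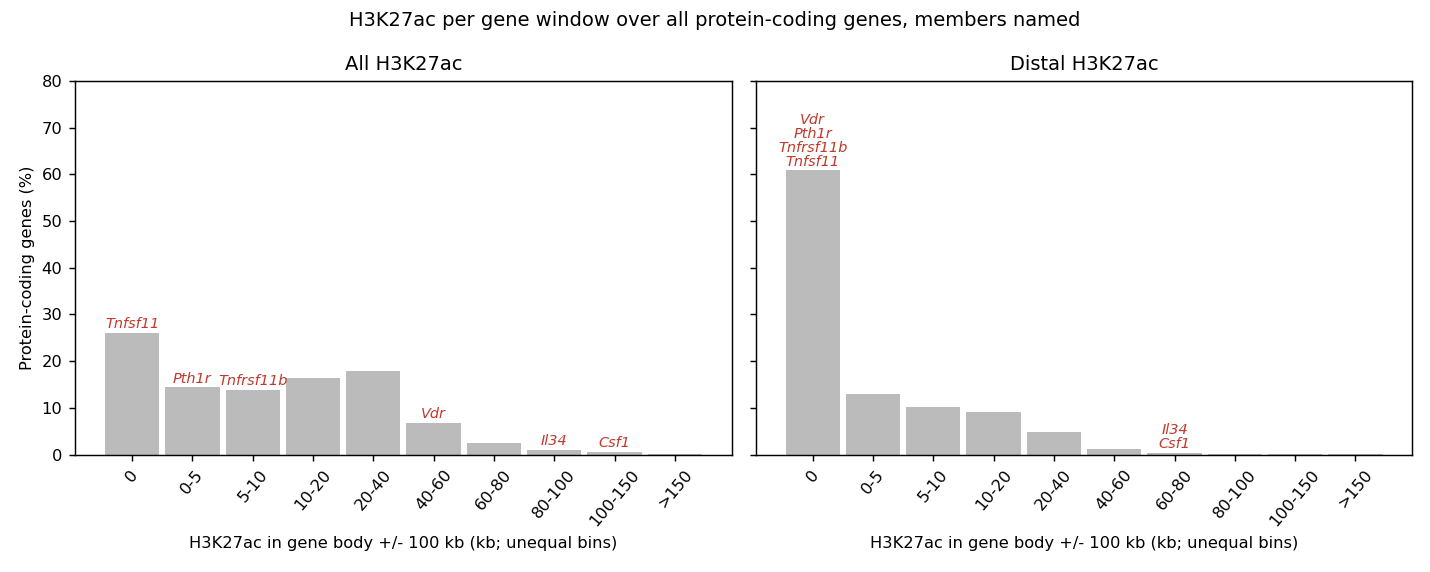
Share of the 21851 protein-coding genes (vertical axis, %) by the H3K27ac in their window (horizontal axis, kb, in unequal bins), for all H3K27ac on the left and distal H3K27ac on the right, with the 6 genes named over their bin. Csf1 and Il34 stand in the sparse upper bins of both plots, with 64.5 kb and 67 kb of distal H3K27ac, and Tnfsf11 stands in the bin at 0.

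Between the oxygen levels the lists were nearly alike at these genes. Of 27 H3K27ac intervals in the 6 windows, 26 were shared, 1 was hypoxia-only and 0 were normoxia-only. Over all 15421 H3K27ac intervals, 3.82% were hypoxia-only and 1.41% normoxia-only, so the member share of 3.70% hypoxia-only was close to the background. By gene, 1 of the 6 (Pth1r) had a hypoxia-only interval in its window, against 11.7% of all genes, and 0 had a normoxia-only interval, against 2.9%. All 18 H3K4me3 intervals in the windows were shared, and only 0.087% of all genes had a condition-specific H3K4me3 interval in their window. In the whole genome, all 14600 shared H3K4me3 intervals had equal scores at both oxygen levels. Agreement between these nearly identical lists therefore cannot show that the mark was unchanged. Of the 36 intervals, 9 held both marks and 9 held H3K4me3 without H3K27ac. A further 11 held H3K27ac and touched an H3K4me3 interval, and 7 were distal.

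At Tnfsf11, the ligand gene (chr14:78277445-78308043 in mm10, minus strand), the start carried H3K4me3 but no H3K27ac was called around it. A single interval of 2.5 kb with H3K4me3 at both oxygen levels covered the start, from 0.957 kb upstream to 1.542 kb into the gene, where it overlaps exonic and intronic sequence. Its width was at the median of 2500 bp, and 33.2% of all 14609 H3K4me3 intervals were narrower. No H3K27ac was called in the window at either oxygen level. The nearest lay 227.458 kb upstream of the start, and the next in the other direction lay 822.042 kb away. A start with H3K4me3 but no H3K27ac was found in 22.4% of genes, and such a start together with an empty window was found in 1113 genes, or 5.09%.

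The 250 bases before the Tnfsf11 start are shown because it had the lowest CpG content of the H3K4me3 starts with a promoter sequence here. RefSeq promoters of build GRCm38.p6, the same assembly as mm10, matched 4 of the 6 genes, with 1 start each for Tnfsf11, Csf1 and Vdr and 3 for Pth1r. Motifs and base content were counted over each promoter of 300 bases, which includes the 50 bases from the start on that are not shown. Promoter sequences run 5′ to 3′ on the gene's strand, and capitals mark matches on either strand to the motifs searched. These were the TATA box TATAAA, the hypoxia response cores ACGTG and GCGTG, the cyclic AMP element TGACGTCA, the AP-1 motif TGANTCA, the Runx motif TGTGGT, the GC box CCGCCC, and the DR3 vitamin D element, a direct repeat with 3 bases between its hexamers. Each hexamer could be AGGTCA, the form GGTTCA found in several known elements, the form AGTTCA or the form GGGTCA.
Tnfsf11, chr14:78308044-78308293, minus strand: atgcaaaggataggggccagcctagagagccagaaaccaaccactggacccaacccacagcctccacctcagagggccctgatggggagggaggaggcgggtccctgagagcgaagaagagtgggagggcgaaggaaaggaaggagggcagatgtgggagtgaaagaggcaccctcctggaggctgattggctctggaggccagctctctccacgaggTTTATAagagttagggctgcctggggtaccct
A TATA box on the opposite strand was the only match in the bases shown, a motif held by 13.6% of all 32851 RefSeq promoters and by 6.10% of the 5127 whose start lay in H3K4me3 without H3K27ac. After the start lay 1 ACGTG core, held by 24.0% of that class. The GC content was 61.7%, equal to the median of the class. With 7 CpG dinucleotides, the ratio of observed to expected CpG was 0.250 against a class median of 0.727, and 3.47% of promoters in the class had a lower ratio.

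Tnfrsf11b, the gene of the decoy receptor (chr15:54250619-54278484, minus strand), had both marks at its start, and its window held just 1 further interval, which touched the start interval. An interval of 3 kb from 1.016 kb upstream to 1.983 kb inside the gene held H3K4me3 and H3K27ac at both oxygen levels. The other interval, of 3 kb with H3K27ac alone, lay in an intron, so that 6 kb ran without a gap from upstream of the start into the gene. The H3K27ac scores were 103 in hypoxia and 104 in normoxia at the start, and 74 and 71 in the intron, so they differed by at most 3 in either direction. Outside the window the next H3K27ac lay 405.517 kb upstream and 185.483 kb downstream of the start. The block of 6 kb was wider than 67.4% of the 12978 blocks that touching H3K27ac intervals form in the genome, whose median was 4 kb. The ligand and its decoy differed in H3K27ac at the start. They had in common H3K4me3 at the start, no distal H3K27ac within 100 kb and no difference in calls between the oxygen levels. Most genes have each of these traits. H3K4me3 was at a start in 58.9% of genes, and 60.9% had no distal H3K27ac in the window. A hypoxia-only H3K27ac interval was in the window of 11.7%, and a normoxia-only one in that of 2.9%.

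Csf1 (chr3:107741048-107760469, minus strand) had the most H3K27ac of the 6 genes, at the start, over the whole gene and far upstream. Both marks were called at the start in an interval of 5 kb (107756001 to 107761000), which was wider than 94.4% of H3K4me3 intervals. The acetylation continued without H3K4me3 on both sides. It ran 27.5 kb through the gene body and past its end, and 17.5 kb upstream of the start, so that 50 kb were acetylated without a gap. This block ranked 113 of 12978, and only 0.91% of blocks were as wide or wider. Of the 4 annotated starts of the gene, 3 lay in the interval with both marks, and the innermost, at position 107750979, lay in the acetylated body 5022 bp from H3K4me3.

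Upstream of Csf1 lay a cluster of 3 distal H3K27ac intervals in intergenic sequence. They were 17 kb (chr3:107786501-107803500), 29.5 kb (chr3:107806001-107835500) and 18 kb (chr3:107839501-107857500) wide, and reached from 26.032 kb to 97.031 kb upstream of the start. All 3 were called at both oxygen levels, and each was wider than 91.7% or more of the 5665 distal intervals, whose median width was 5500 bp. Together they covered 64.5 kb over a span of 71 kb, which ranked 29 among 667 clusters with a median of 17 kb. With the 4155 lone distal intervals counted as well, the cluster ranked 40. The interval next to Csf1 had Csf1 as its nearest start. The other pair lay 41.729 kb and 19.729 kb from the start of Eps8l3, nearer than to that of Csf1, and Eps8l3 had neither mark at its start. Which gene these intervals act on was not measured. On the far side of the gene, 3 touching intervals of 31 kb in all surrounded the start of Ahcyl1, which encodes a protein that binds the inositol trisphosphate receptor, and these carried both marks at that start.

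The promoter and the distal cluster of Csf1 are shown because they lay in the widest acetylated block and the widest distal cluster at the 6 genes. The widest single interval, of 32 kb, was at Il34. From each distal interval a window of 300 bases was taken that holds no soft-masked repeat and the most different motifs of those searched, so its matches are a consequence of that choice. Distal windows are given on the plus strand.
Csf1 promoter, chr3:107760470-107760719, minus strand: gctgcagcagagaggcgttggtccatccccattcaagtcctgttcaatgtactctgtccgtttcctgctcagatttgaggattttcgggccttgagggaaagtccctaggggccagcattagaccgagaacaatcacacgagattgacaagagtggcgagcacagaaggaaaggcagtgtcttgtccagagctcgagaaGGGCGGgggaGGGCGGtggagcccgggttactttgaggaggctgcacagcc
Csf1 distal interval of 17 kb, chr3:107787101-107787400: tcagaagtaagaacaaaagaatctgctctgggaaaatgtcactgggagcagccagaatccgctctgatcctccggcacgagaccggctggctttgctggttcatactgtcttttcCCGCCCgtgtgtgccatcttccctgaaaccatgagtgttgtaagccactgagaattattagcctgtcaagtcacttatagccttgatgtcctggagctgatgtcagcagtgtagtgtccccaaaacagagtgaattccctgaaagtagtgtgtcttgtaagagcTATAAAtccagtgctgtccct
Csf1 distal interval of 29.5 kb, chr3:107822801-107823100: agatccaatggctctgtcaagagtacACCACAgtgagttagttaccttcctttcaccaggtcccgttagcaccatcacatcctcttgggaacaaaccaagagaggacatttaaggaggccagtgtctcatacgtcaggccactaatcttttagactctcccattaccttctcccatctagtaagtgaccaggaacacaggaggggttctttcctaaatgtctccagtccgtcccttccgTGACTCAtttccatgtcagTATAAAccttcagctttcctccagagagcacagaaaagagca
Csf1 distal interval of 18 kb, chr3:107841001-107841300: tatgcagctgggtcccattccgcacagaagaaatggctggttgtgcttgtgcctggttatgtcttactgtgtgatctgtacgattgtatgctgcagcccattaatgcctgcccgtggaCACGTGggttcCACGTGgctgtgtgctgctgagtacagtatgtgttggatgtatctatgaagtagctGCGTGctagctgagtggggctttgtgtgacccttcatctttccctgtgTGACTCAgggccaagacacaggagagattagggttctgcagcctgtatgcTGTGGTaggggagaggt
The promoter matched the GC box at 2 places and none of the other motifs, and 70.4% of promoters with both marks held a GC box. Its observed to expected CpG ratio of 0.644 was below the median of 0.826 for promoters with both marks, and 22.4% of these had a lower ratio.

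Over their full length the 3 distal intervals were read against distal H3K27ac at large. Cut into 300-base windows, the cluster gave 214 windows. The Runx motif was in 51 of them (23.8%, against 23.1% of the 146593 windows of all distal intervals), and the AP-1 motif was in 25 (11.7%, against 11.03%). The core ACGTG was in 32 windows (14.95%, against 13.9%) and the core GCGTG in 24 (11.2%, against 14.3%). The GC box was in 15 windows (7.01%, against 4.14%). The cyclic AMP element and the vitamin D element were in 0 windows, and over all distal windows they were in 0.222% and 0.0784%. In the windows of the 4 distal intervals at Il34, 222 in number, the Runx motif was in 27.9%, AP-1 in 9.01%, ACGTG in 9.46% and GCGTG in 15.3%, again with 0 for the cyclic AMP and vitamin D elements. GC content was 46.8% to 49.9% in the Csf1 intervals and 42.9% to 53.0% in those at Il34, where the median of all distal intervals was 44.8%.

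Il34 (chr8:110741829-110805924, minus strand), the gene of the other CSF1R ligand, had about as much distal H3K27ac as Csf1 but lacked H3K4me3 at its start. The nearest H3K27ac lay 0.598 kb upstream of the start at position 110805903, and the nearest H3K4me3 lay 39.098 kb away, at the start shared by Sf3b3, a splicing factor gene, and Cog4, a Golgi complex gene. H3K27ac without H3K4me3 within 1000 bp of a start was found in 251 genes, or 1.15%. The interval upstream of Il34 (chr8:110806501-110838500) was 32 kb wide, wider than 97.99% of distal intervals, and lay in exons and introns of Sf3b3. It was 6.5 kb from the H3K4me3 of the Sf3b3 start, so its acetylation cannot be assigned to Il34 rather than Sf3b3 by position. Inside Il34, an intronic interval of 11.5 kb began 10.403 kb from the start. With the upstream interval it formed a cluster of 43.5 kb that spanned the start and ranked 69 of 667, or 93 with lone distal intervals counted as well.

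Further into Il34, a narrow interval of 1.5 kb carried both marks 49.903 kb from the start and touched an acetylated intronic interval of 5 kb. Its H3K4me3 score was 51. No start of a protein-coding gene lay within 28.775 kb of it. Beyond the gene, a pair of lone distal intervals of 7 kb and 16.5 kb lay in Vac14, and a block of 15.5 kb surrounded the start of Mtss1l, a gene of the actin cytoskeleton, which had both marks. The start of Fuk, a fucose kinase gene, had H3K4me3 alone. All 9 H3K27ac intervals in the Il34 window were shared between the oxygen levels.

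Pth1r (chr9:110722085-110747145, minus strand), the parathyroid hormone receptor gene, had H3K4me3 at some of its starts and no H3K27ac near any of them. An interval of 3.5 kb with H3K4me3 (110741001 to 110744500) covered the annotated starts at positions 110742719 and 110743686. It did not reach the outermost start at position 110747122, which lay 2622 bp away. The nearest H3K27ac was 121.122 kb downstream of that outermost start. The window is dense in genes. Its other H3K4me3 intervals were 2.5 kb at the start of Nradd, 5.5 kb over the starts of Nbeal2, a platelet granule gene, and Ccdc12, and 2.5 kb inside Ccdc12.

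The 3 promoters of Pth1r in RefSeq allow the marked and unmarked starts of the gene to be compared, and the outermost and the innermost of them are shown for this.
Pth1r outermost start, no mark, chr9:110747146-110747395, minus strand: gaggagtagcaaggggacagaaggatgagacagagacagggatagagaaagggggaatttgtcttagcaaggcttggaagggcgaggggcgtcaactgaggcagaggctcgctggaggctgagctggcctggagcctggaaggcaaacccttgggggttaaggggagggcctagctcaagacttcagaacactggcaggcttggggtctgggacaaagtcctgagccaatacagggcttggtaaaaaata
Pth1r innermost start, H3K4me3, chr9:110742611-110742860, minus strand: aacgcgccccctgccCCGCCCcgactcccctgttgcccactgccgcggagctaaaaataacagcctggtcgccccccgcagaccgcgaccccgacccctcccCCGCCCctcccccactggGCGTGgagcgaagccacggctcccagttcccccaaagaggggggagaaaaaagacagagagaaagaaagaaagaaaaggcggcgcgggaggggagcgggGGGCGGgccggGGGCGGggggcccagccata
The outermost promoter had 5 CpG dinucleotides and an observed to expected CpG ratio of 0.250, near the median of 0.207 for promoters with neither mark. The innermost had 27 and a ratio of 0.751, near the median of 0.727 for promoters with H3K4me3 without H3K27ac. The promoter between them, also in H3K4me3, had 23 and a ratio of 0.693. GC boxes followed the same division, with 0 at the outermost start, 1 at the middle start and 4 at the innermost, and 1 GCGTG core was present at the innermost alone.

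The only condition-specific interval of the 6 windows was at the edge of the Pth1r window. It was a hypoxia-only H3K27ac interval of 3.5 kb (chr9:110620001-110623500), of which 1416 bp were inside the window. It lay in exonic and intronic sequence of Nradd, 952 bp from the Nradd start and 123.622 kb from the outermost Pth1r start. Its score was 51, near the lowest of 50 in the hypoxia list. This interval touched a shared interval of 2.5 kb with both marks at the Nradd start, whose H3K27ac score was 1000 in hypoxia and 118 in normoxia.

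Vdr (chr15:97854425-97910630, minus strand), the vitamin D receptor gene, also had H3K4me3 without H3K27ac at its start. The H3K4me3 interval of 3 kb reached from 1.19 kb upstream to 1.809 kb inside the gene. All 49.5 kb of H3K27ac in its window lay beyond the end of the gene, in a block of 30 kb at Hdac7, a class IIa histone deacetylase gene, and a block of 19.5 kb at the heme transporter gene Slc48a1. The closest of it was 67.31 kb from the Vdr start, and none of it was distal, because each block carried H3K4me3 at a start. The start of Hdac7 had the widest H3K4me3 interval of all 6 windows, 8.5 kb, wider than 99.3% of H3K4me3 intervals. The cartilage collagen gene Col2a1, the cyclic AMP sensor gene Rapgef3 and Tmem106c had H3K4me3 alone at their starts.

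The Vdr promoter is shown beside that of Tnfsf11 because both lay in H3K4me3 without H3K27ac.
Vdr, chr15:97908297-97908546, minus strand: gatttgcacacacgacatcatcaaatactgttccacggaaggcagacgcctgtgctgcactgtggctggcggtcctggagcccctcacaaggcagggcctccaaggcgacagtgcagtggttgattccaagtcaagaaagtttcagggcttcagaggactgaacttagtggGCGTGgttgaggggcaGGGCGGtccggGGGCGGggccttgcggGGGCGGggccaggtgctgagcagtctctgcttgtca
It held 3 GC boxes and 1 GCGTG core, and no TATA box. A GC box was in 65.3% of promoters of this class and a GCGTG core in 50.9%. Its CpG ratio was 0.546, and 23.4% of the class had a lower ratio.

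**Figure D3:**
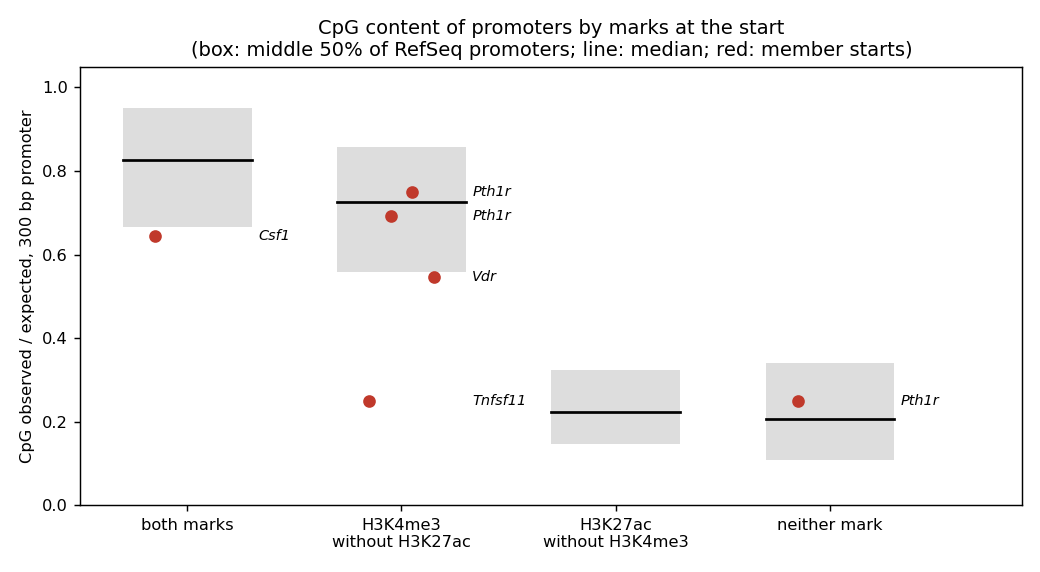
Ratio of observed to expected CpG in promoters of 300 bases (vertical axis) for RefSeq promoters grouped by the marks that cover the start (horizontal axis). Grey boxes hold the middle 50% of promoters, lines are medians and red points are the 6 promoters of Tnfsf11, Csf1, Pth1r and Vdr, where Tnfsf11 lies far below its box at 0.250.

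The authors' score gave a further, coarser comparison of the oxygen levels. It ran from 50 to 160 or was 1000. The sources do not define it, and it was not comparable between chromosomes. On chromosome 15, 0 of 651 hypoxia H3K27ac peaks had a score of 1000, against 40.9% on chromosome 3, 10.3% on chromosome 8 and 41.4% on chromosome 9. H3K4me3 scores were equal in hypoxia and normoxia for all 14600 shared intervals and so hold nothing on the difference. For H3K27ac, the oxygen levels were therefore compared only within an interval. The lowest H3K27ac score was 50 on 20 of 21 chromosomes in both lists. Among the 26 shared intervals of the members, the hypoxia score was higher in 14, equal in 10 and lower in 2. Over all 14614 shared intervals it was higher in 39.9%, equal in 43.6% and lower in 16.6%, so a higher hypoxia score was common throughout the lists.

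At Csf1 the hypoxia score was higher in 5 of 9 intervals and equal in 4. The interval over the gene body had 1000 in hypoxia and 104 in normoxia, and the outermost distal interval had 1000 and 115. The start and the other distal intervals were at 1000 in both. The interval just upstream of the start had 128 and 112. The third interval at 1000 in hypoxia alone was that at Nradd in the Pth1r window. These 3 were 11.5% of the member intervals, and over all shared intervals the share was 5.45%, or 7.62% on chromosome 3 and 9.15% on chromosome 9. At Il34 the scores were higher in hypoxia in 4 intervals, equal in 4 and lower in 1. The upstream interval had 122 and 108, the intronic interval had 1000 in both, and the Mtss1l start had 127 and 67. At Vdr, 3 were higher and 2 equal, from 141 and 141 at the Hdac7 start to 110 and 96 in an Hdac7 intron.

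**Figure D4:**
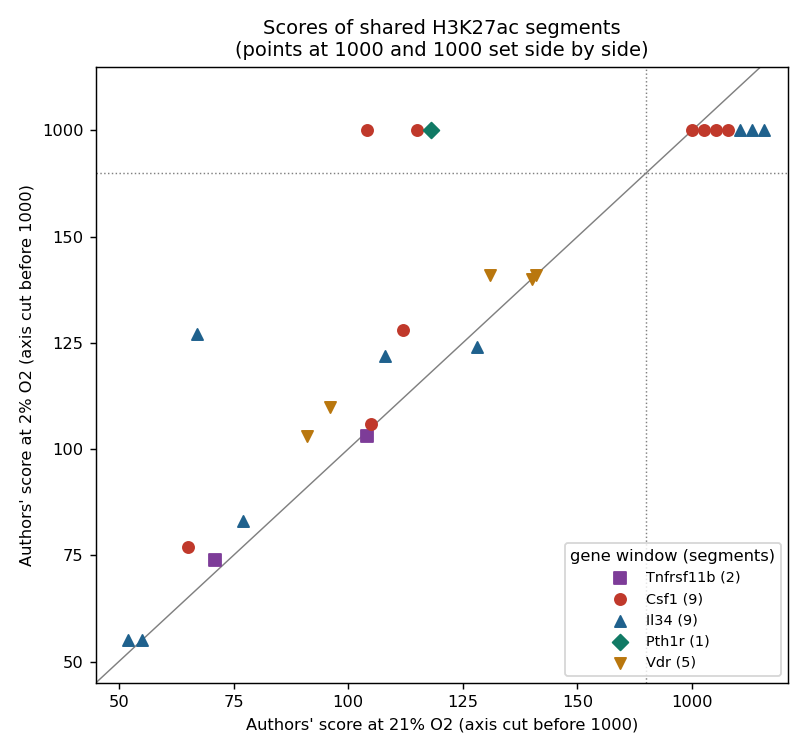
Score of each of the 26 shared H3K27ac intervals in normoxia (horizontal axis) against hypoxia (vertical axis), with symbols by gene window and both axes cut before 1000. Points above the diagonal have the higher score in hypoxia (14 of 26), and 3 intervals reach 1000 in hypoxia alone, 2 of them at Csf1 and 1 in the Pth1r window.

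The genes most like each member were sought among genes with the same marks at their starts, by the difference in kb covered in the window, summed over the 4 lists. Csf1 came closest to Antxr1 and Tead1, each 6 kb away, with 143.5 kb and 147 kb of H3K27ac. Il34 came closest to Cd74 at 2.956 kb and Pakap at 7.5 kb, out of 235 genes with its state. Vdr came closest to Car9 and Caskin1 at 7 kb, and Pth1r had 5 genes at 1.416 kb, of which Ank1 and Fdxr come first by name. Tnfrsf11b had 5 genes at no difference, with Fbxl7 and Malsu1 first by name. Tnfsf11 had 207, with 1110032F04Rik and 9330182L06Rik first by name, out of 4893 genes with its state.

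Genes that work with the 6 were then read in the same way, from lists of partners, hormone response genes, inflammatory inducers and other stromal regulators of osteoclasts. Of 9 partners, 2 had both marks at a start, 3 had H3K4me3 alone, 1 had H3K27ac alone and 3 had neither. Over all genes 36.5% had both marks, 22.4% H3K4me3 alone, 1.15% H3K27ac alone and 39.9% neither. Lgr4, a RANKL receptor of the LGR family, had both marks and 38 kb of H3K27ac in its window. Sdc1, a syndecan that binds IL-34, had both marks and 14.5 kb. Tnfrsf11a, which encodes RANK, and Ptprz1, another IL-34 receptor gene, had H3K4me3 alone, with 2.5 kb and 0 kb of H3K27ac. Pthlh, which encodes the PTH-related ligand of PTH1R, had H3K4me3 alone and 0 kb, and Pth had neither mark and 0 kb. Tnfsf10, which encodes TRAIL, a further ligand of osteoprotegerin, had neither mark at its start but 17.9 kb of distal H3K27ac. Csf1r had an acetylated interval of 5.5 kb at its start without H3K4me3, scored 76 in hypoxia and 73 in normoxia. Its ligand gene Il34 had the same call within 1000 bp, but there the H3K27ac lay 0.598 kb from the start and did not cover it. Its window holds Pdgfrb, a mesenchymal gene with both marks at its start.

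Among the lists of osteoclast regulation, the hormone response list most often had both marks at a start. Of its 22 genes, 19 had both marks at a start, against 36.5% of all genes, and Rxrg, Cyp24a1 and Cyp27b1 had neither. Rxra, which encodes the partner receptor of VDR, had 149.957 kb of H3K27ac in its window, 119.957 kb of it distal, more than the window of Csf1. The cyclic AMP pathway genes Gnas, Prkaca, Creb1 and Crtc2 and the kinase genes Sik2 and Sik3, all downstream of PTH1R, had both marks. Pth1r and Vdr themselves had H3K4me3 without H3K27ac at a start, a state found in 22.4% of all genes, while most genes of this list had H3K27ac. The list was chosen with earlier results of these data known, so this contrast cannot show a trait of hormone response genes.

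Of 18 inflammatory inducers and their receptors, 11 had both marks in hypoxia and 10 in normoxia, since Ptges had H3K27ac at a start in hypoxia alone. H3K4me3 alone was at 3 in hypoxia and 4 in normoxia, and at both oxygen levels 1 had H3K27ac alone and 3 had neither. Over all genes, 36.5% had both marks at a start. The counts of the other lists were equal at both oxygen levels. The receptor genes Il6st, Il1r1, Osmr, Lifr and Tnfrsf1a were among those with both marks, and Il1b, Tnf and Osm, ligands made mainly by immune cells, had neither. Of 18 other stromal regulators, 8 had both marks, 3 had H3K4me3 alone, 2 had H3K27ac alone and 5 had neither. The shares over all genes were 36.5%, 22.4%, 1.15% and 39.9%. The call of Il34, H3K27ac without H3K4me3 within 1000 bp of a start, was shared in these lists by the cytokine gene Il6 and the chemokine genes Ccl2 and Ccl7. Ccl2 and Ccl7 had 37.5 kb and 41.5 kb of H3K27ac in their windows, all of it distal, and they are neighbours, so their windows overlap. Dkk1 and Csf2 had neither mark and no H3K27ac in the window.

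**Figure D5:**
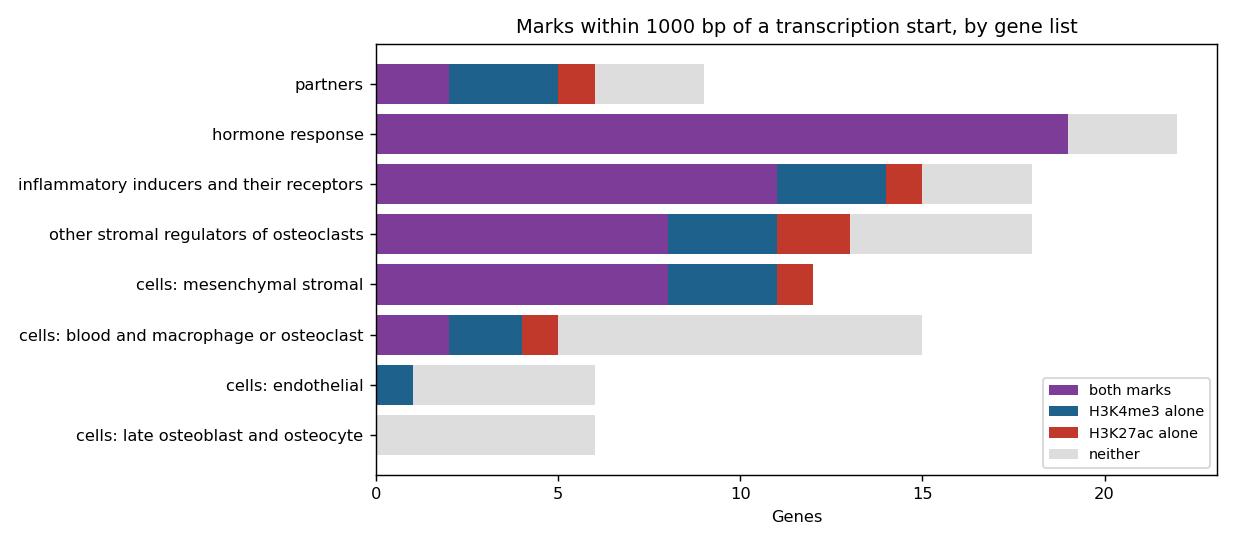
Number of genes (horizontal axis) by the marks called at either oxygen level within 1000 bp of a transcription start, for the 4 lists of osteoclast regulation and the 4 marker lists of cell types (rows). The hormone response list has 19 of 22 genes with both marks, and the late osteoblast and osteocyte list has 6 of 6 with neither. Over all protein-coding genes, 36.5% had both marks and 39.9% neither.

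Condition-specific H3K27ac in the gene body or within 20 kb was found at 6 genes of the 4 lists. Over all genes, 4.68% had a hypoxia-only and 1.15% a normoxia-only interval at this distance. The lists were chosen with earlier results of these data known, so their counts cannot show an excess over these shares. In the inflammatory list, 4 of 18 genes had a hypoxia-only interval and 1 had a normoxia-only interval. At Stat3, the transcription factor gene of IL-6 family signalling, the hypoxia-only interval was 41 kb wide (chr11:100884001-100925000, score 51). At Il6st, the gene of the shared receptor chain gp130, it was 46 kb wide (chr13:112469001-112515000, score 58). At Il1r1 it was 4 kb wide with a score of 64. At Ptges, the gene of inducible prostaglandin E synthase, an interval of 2.5 kb with H3K4me3 at a start was acetylated in hypoxia alone, with a score of 50. The normoxia-only interval was at Tnfrsf1a, 5 kb wide with a score of 55. In the list of other stromal regulators, Cxcl12 had a hypoxia-only interval of 9.5 kb with a score of 52. The scores at these 6 genes, from 50 to 64, were near the lowest score of 50. The median H3K27ac score was 111 in the hypoxia list and 102 in the normoxia list. These medians pool all chromosomes, between which scores were not comparable, so they are a rough guide only. The partners and the hormone response genes had 0 of either kind.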

How the data were processed

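H3K27ac and H3K4me3 were profiled by ChIP-seq in mouse MSCs at 2% and 21% oxygen, with 2 libraries per mark and oxygen level and 4 inputs. According to the study's methods and the submitters' processing notes, reads were mapped by the authors to mm10 (Bowtie2), duplicates were taken out (Picard), and chromstaR, run in its differential mode, made the peak calls. Their versions are not given in the sources used here. What the authors deposited is 1 list for each mark at each oxygen level, pooled over its libraries, with a score per peak that the sources do not define. Because the model was fitted jointly, the lists share boundaries, which lie at multiples of 500 bp, and differences between them can be under-called. Inputs and reads were not analysed here.

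Intervals were read within each gene body and 100000 bp on either side with Python 3.11.15, pandas 2.3.3 and numpy 2.4.6, and at least 1 bp of overlap counted. Starts, exons and genes came from GENCODE M21 (basic set, same build). Promoters (250 bases before a start and 50 from it on) came from RefSeq (GRCm38.p6), and all 6 used were identical to the genome sequence. Observed to expected CpG was the number of CpG times the length, divided by the number of C times the number of G. The interval code was tested on simulated data. Ranks and shares over all 21851 genes describe the background, and they depend on gene length and gene density. The members, the lists and the motifs were chosen with earlier results of these data known, and the genes named were the 6 members, the gene nearest to each peak, the 2 genes most like each member, the partners and the list genes with condition-specific H3K27ac within 20 kb. Other list genes were named as examples after their values were seen. Alternatives were windows of 50000 and 200000 bp, leaving out the lowest-scoring 25% of each list, joined peaks, midpoints, isolation, other definitions of distal, other joining distances and a promoter window of 2500 bp.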

Additional observations from a re-analysis of the deposited data

How the results depend on the processing

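No paired analysis was possible because the lists pool the libraries of a group and carry no replicate number, and for the same reason no replicate could be left out. Of 47 alternative values, 34 stayed within 1.5 times the value reported and 13 moved by more. With a window of 50000 bp, H3K27ac was 90.4 kb at Csf1, 30 kb at Vdr and 0 kb at Pth1r, and the condition-specific interval was lost (0). With 200000 bp, H3K27ac was 11.5 kb at Tnfrsf11b and 10 kb at Pth1r, still 0 kb at Tnfsf11, and distal intervals numbered 13. Requiring no peak of the other oxygen level within 1000 bp also left 0 condition-specific intervals. Without the lowest-scoring 25% of peaks there were 2, at Csf1 and Il34 in place of Pth1r. Each was in 1 list only because its peak in the other list had been left out. With the same cut, H3K4me3 was at a start in 2 partners and in 7 other stromal regulators. The cut ranked scores over all chromosomes together, although they were not comparable between chromosomes, so the peaks left out depended on the chromosome. Joining touching peaks left 16 H3K27ac intervals, and joining distal intervals within 5000 bp left 1 cluster, that at Csf1. The marks at the starts of the 6 genes did not change in number with a promoter window of 2500 bp. The depth is unknown and limits which weak peaks could be called.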
